A study of Mus musculus with 14 samples.

Results

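Heart RNA from 14 male C57BL/6J mice was sequenced, and the transcripts of 9 transcription factors of the interferon regulatory factor (IRF) and signal transducer and activator of transcription (STAT) families are described here: Irf1, Irf2, Irf3, Irf5, Irf7, Irf8, Irf9, Stat2 and Stat3. They were taken by symbol from the 54532 rows of the gene count table, and all 9 were found and passed the filter on low counts that left 16034 genes for testing. The mice were wild type and 8 weeks old at the start, so those whose hearts were taken after 6 weeks were older. Those of the irradiated groups received 30 Gy of 60Co γ-rays to the front of the chest under anaesthesia with the rest of the body behind lead, and the control mice were not irradiated. Hearts were taken after 1 day from 3 control mice (Control_1d) and 3 irradiated mice (IRR_1d), and after 6 weeks from 4 control mice (Control_6w) and 4 irradiated mice (IRR_6w). Each library was labelled as a separate mouse, so the spread between libraries includes that between animals. The RNA was that of whole tissue, in which more cells of a type and more RNA per cell cannot be told apart.

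IRFs and STATs are the factors through which cells switch on interferon and cytokine genes. IRF3 and IRF7 are activated by kinases downstream of sensors of foreign or displaced nucleic acids and drive the type I interferon genes. Secreted interferon binds its receptor, JAK kinases phosphorylate STATs, and STAT2 joined by IRF9 and a further STAT forms the complex ISGF3, which binds interferon-stimulated response elements (ISREs) in the promoters of interferon-stimulated genes. IRF7 and IRF9 are themselves products of such genes. IRF5 acts downstream of toll-like receptors in myeloid cells, IRF1 is best known as a mediator of the interferon-gamma response, IRF2 as its competitor at shared sites, IRF8 as a factor of macrophage and dendritic cell development, and STAT3 as the factor activated by interleukin 6 and its relatives through the receptor gp130. STATs bind gamma-activated sequences (GAS).

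The genes lie on mm10 (GRCm38) at chr7:141262706-141266481 on the minus strand (Irf7, ENSMUSG00000025498), chr14:55603571-55610030 plus (Irf9, ENSMUSG00000002325), chr10:128270559-128292849 plus (Stat2, ENSMUSG00000040033), chr7:44997648-45002848 plus (Irf3, ENSMUSG00000003184), chr6:29526625-29541871 plus (Irf5, ENSMUSG00000029771), chr11:53770014-53778374 plus (Irf1, ENSMUSG00000018899), chr8:46739732-46847458 plus (Irf2, ENSMUSG00000031627), chr8:120736358-120756694 plus (Irf8, ENSMUSG00000041515) and chr11:100885098-100939540 minus (Stat3, ENSMUSG00000004040). The counts are of reads over the exons of each gene. Exons of Irf5 shared 14.1% of their bases with Tnpo3 on the opposite strand, and for the other 8 genes the share with any neighbour was at most 3.40%. Whether reads were counted by strand, and in which counting mode, was not stated. The overlap may therefore affect the counts of Irf5, in a direction that is not known.

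The promoter windows searched differed in the core letters of response elements that they held. RefSeq windows of 300 bases (GRCm38.p6, 250 bases before to 50 after a start site) were found for all 9 members, 12 windows in all. They were searched on both strands for the ISRE core GAAANNGAAA and the GAS core TTCNNNGAA, which do not overlap each other in any member. The ISRE core was found in 2 members, Stat2 and Irf2, and in 3.44% of the 32851 windows of all genes. The GAS core was found in 3 members, Irf1, Irf2 and Irf8, and in 8.3% of all windows. These letters were not in the windows of Irf3, Irf5, Irf7, Irf9 and Stat3. Both windows of Irf9 (chr14:55603735-55604034 and chr14:55604329-55604628) begin inside the gene, which starts at 55603571. The bases before that start were therefore not searched for Irf9. The 250 bases before the start site are shown for Irf7, the member with the largest difference at 6 weeks, and for the 4 members with a match, 5′ to 3′ on the strand of the gene, with each match in capitals.
Irf7 (chr7:141266425-141266674, minus strand): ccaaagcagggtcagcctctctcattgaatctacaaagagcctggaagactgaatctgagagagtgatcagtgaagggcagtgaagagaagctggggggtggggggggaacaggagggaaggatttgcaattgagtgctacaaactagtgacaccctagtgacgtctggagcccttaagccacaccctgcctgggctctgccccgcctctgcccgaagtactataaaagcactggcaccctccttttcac
Stat2 (chr10:128270248-128270497, plus strand): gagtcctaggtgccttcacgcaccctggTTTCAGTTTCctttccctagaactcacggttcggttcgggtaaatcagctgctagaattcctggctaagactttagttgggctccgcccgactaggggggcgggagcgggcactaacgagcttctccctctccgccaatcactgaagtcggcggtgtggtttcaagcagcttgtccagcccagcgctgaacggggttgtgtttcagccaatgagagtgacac
Irf2 (chr8:46739495-46739744, plus strand): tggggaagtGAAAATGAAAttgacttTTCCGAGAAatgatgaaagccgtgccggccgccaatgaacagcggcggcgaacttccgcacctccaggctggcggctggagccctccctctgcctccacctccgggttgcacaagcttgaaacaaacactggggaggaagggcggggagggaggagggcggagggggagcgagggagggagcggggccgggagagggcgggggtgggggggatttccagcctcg
Irf1 (chr11:53769764-53770013, plus strand): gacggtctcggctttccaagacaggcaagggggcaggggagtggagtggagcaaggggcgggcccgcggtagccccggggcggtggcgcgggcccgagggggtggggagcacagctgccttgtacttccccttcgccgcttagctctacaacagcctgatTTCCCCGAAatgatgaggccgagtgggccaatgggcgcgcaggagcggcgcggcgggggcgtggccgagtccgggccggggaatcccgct
Irf8 (chr8:120736108-120736357, plus strand): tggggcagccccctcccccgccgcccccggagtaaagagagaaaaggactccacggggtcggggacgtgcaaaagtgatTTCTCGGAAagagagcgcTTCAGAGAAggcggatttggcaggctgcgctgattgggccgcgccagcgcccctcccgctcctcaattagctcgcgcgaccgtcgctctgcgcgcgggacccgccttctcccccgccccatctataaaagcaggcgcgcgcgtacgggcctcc
Counted from the start site, the ISRE core of Stat2 begins at -222 and lies on the opposite strand. That of Irf2 begins at -241, and its GAS core at -224. The GAS core of Irf1 begins at -90, and those of Irf8 at -171 and -153. A match of letters is a description of the sequence and not a measured binding site.

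Libraries held 13336746 to 16837265 counts. Levels are given as CPM, counts scaled to the same total in every library. In Control_1d replicate 1, IRR_6w replicate 3 and IRR_6w replicate 4, 30.7, 21.6 and 8.62% of genes with an average of 2 to 5 CPM were at 0 counts, against at most 1.98% in any other library. Markers of other tissues were high in several libraries. The summed level of 7 thymocyte markers was 2873 CPM in Control_6w replicate 3 and at most 43.1 elsewhere, while its cardiomyocyte markers summed to 4822, the lowest of all. The lung epithelium markers summed to 450.8 CPM in IRR_6w replicate 1 and at most 27.6 elsewhere, and the atrial markers to 2812 CPM there and 1166 in IRR_1d replicate 3, and to at most 535.7 elsewhere, in Control_1d replicate 2. The brown fat markers summed to 687.5, 938.6 and 290.8 CPM in these 3 libraries and to at most 21.3 in any other. Germ cell markers summed to 43.1 to 69.1 CPM in Control_6w replicates 1 to 3 and to at most 0.421 elsewhere, and these libraries were left out only one at a time or, for replicate 3, with the brown fat libraries. The 12 macrophage markers summed to 1254 to 1632 CPM in IRR_6w, above the 321 to 798 of Control_6w, the 690 to 941 of Control_1d and the 788 to 932 of IRR_1d. The results were therefore also computed without the 3 libraries with brown fat transcripts together and without the 3 libraries with many genes at 0 counts together.

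The first comparison asks which of the factors differ in transcript level 6 weeks after irradiation. Irf7 rose 14.4-fold and was called, and 5 more members, Irf9, Stat2, Stat3, Irf8 and Irf5, had fold changes of 1.78 to 2.57 without passing the adjusted test. Irf1 and Irf3 had log2 fold changes of -0.44 and -0.45 and Irf2 of 0.10, none of them called. A gene was called here where the edgeR quasi-likelihood test gave a p, adjusted by Benjamini and Hochberg for the whole table, under 0.05 and the groups differed by more than 2-fold. It was met by 1 of 9 members and by 0.256% of all tested genes. At an unadjusted p under 0.05, 5 members were higher, Irf7, Irf9, Stat2, Stat3 and Irf8, and 5.43% of all tested genes were. The log2 fold change was above 0 in 7 of 9 members and in 43.8% of all genes, and the median was 1.02 over the members and -0.09 over all genes.

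Irf7, the inducible partner of Irf3 and the usual source of amplified type I interferon transcription, carried the largest difference. Its level was 8.75, 14.5, 9.24 and 10.8 CPM (scaled by TMM, as are all CPM given per library) in the 4 Control_6w libraries and 56.5, 239.8, 142.3 and 185.0 CPM in the 4 IRR_6w libraries. The lowest irradiated library, replicate 1, was still above every control, and the other three lay far above it. The means were 10.8 ± 2.58 (SD, n = 4) and 155.9 ± 77.3 CPM (SD, n = 4), a difference of 3.85 on the log2 scale (SE 0.57, edgeR adjusted p = 0.0188). In an exact permutation test of log2(CPM + 1), two-sided, p was 0.0286, the smallest that 4 against 4 libraries allow. The log2 fold change stayed between 3.57 and 4.13 over the 14 fits that each left out 1 library. The call was lost in 4 of these, those that dropped replicate 1 or replicate 2 of Control_6w, or replicate 3 or replicate 4 of IRR_6w, at edgeR adjusted p of 0.086, 0.10, 0.064 and 0.057, when no gene of the table was called. Without the 3 libraries with many genes at 0 counts the log2 fold change was 3.78 (edgeR adjusted p = 0.187, not called), and without the 3 libraries with brown fat transcripts it was 4.06 (edgeR adjusted p = 0.000808).

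**Figure D1:**
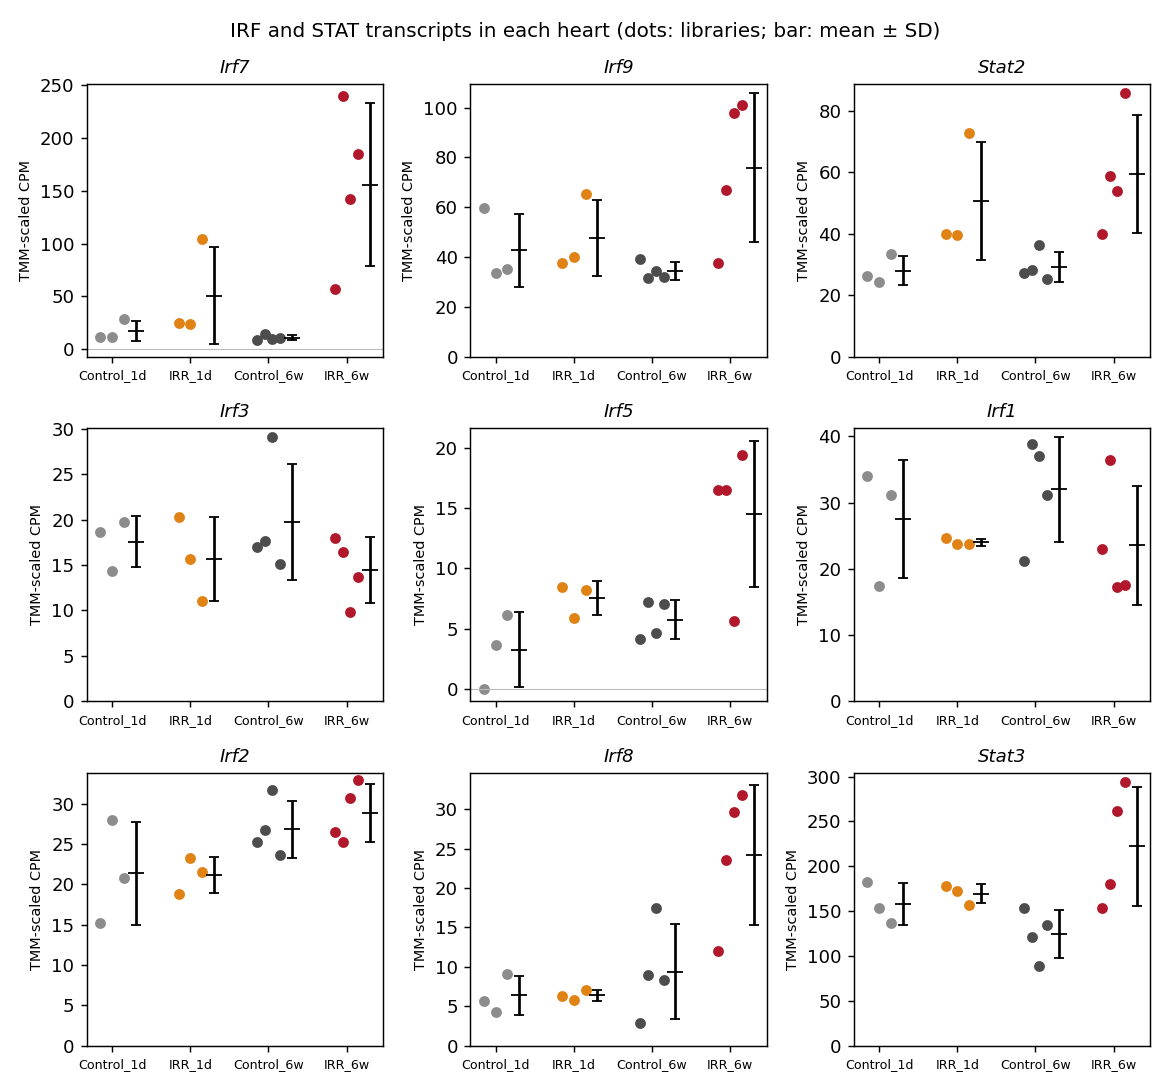
Level of each of the 9 transcripts in TMM-scaled CPM, with a dot for each library (3, 3, 4 and 4 in Control_1d, IRR_1d, Control_6w and IRR_6w) and a bar for the mean ± SD of the group. Irf7 spans 56.5 to 239.8 CPM in IRR_6w and 8.75 to 14.5 CPM in Control_6w. These groups overlap for Irf1, Irf2, Irf3, Irf5, Irf8 and Irf9.

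Irf9 and Stat2 encode the subunits of ISGF3 that give it its DNA contact and its link to the type I interferon receptor. Irf9 was at 39.3, 31.6, 34.3 and 32.1 CPM in Control_6w and at 37.5, 66.8, 97.9 and 101.2 CPM in IRR_6w. Irradiated replicate 1 lay within the controls, and the other three above them. The log2 difference was 1.14 (SE 0.32, edgeR adjusted p = 0.170). By plain library totals the groups did not overlap and the exact permutation p was 0.0286, and by TMM-scaled totals it was 0.0571. Stat2 was at 27.3, 28.1, 36.4 and 25.4 CPM in Control_6w and at 39.9, 58.7, 53.9 and 85.8 CPM in IRR_6w. All irradiated libraries were above all controls, replicate 1 again the lowest. This gave a log2 difference of 1.02 (SE 0.28, edgeR adjusted p = 0.158; exact permutation p = 0.0286).

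Both ISGF3 subunits depended on which libraries were counted. DESeq2 called Irf9 (adjusted p = 0.0323) and Stat2 (adjusted p = 0.0330) as well as Irf7, with 328 genes called in all. Without the 3 libraries with brown fat transcripts edgeR also called Irf9 (log2 fold change 1.37, adjusted p = 0.0299) and Stat2 (1.29, adjusted p = 0.0210). In that fit 21 of 30 listed interferon-stimulated genes were called, against 5 in the main fit, so calls rose outside the members too. Without IRR_6w replicate 1 alone edgeR called Irf9 (adjusted p = 0.0484) and not Stat2 (adjusted p = 0.0838). Without the 3 libraries with many genes at 0 counts, which leaves IRR_6w replicates 1 and 2, the log2 fold change was 0.61 for Irf9 and 0.75 for Stat2.

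Stat3, the factor of the interleukin 6 family, was at 153.17, 120.9, 89.1 and 135.0 CPM in Control_6w and at 153.18, 180.2, 261.4 and 294.1 CPM in IRR_6w. The groups did not overlap, but the lowest irradiated and the highest control library were nearly equal. On the log2 scale the difference was 0.84 (SE 0.25, edgeR adjusted p = 0.222; exact permutation p = 0.0286), and 0.42 without the 3 libraries with many genes at 0 counts. DESeq2 gave an adjusted p of 0.0279 for Stat3 at a fold change under 2. With Irf7 and Stat2 it was one of 3 members whose groups did not overlap with the irradiated higher, which held for 4.07% of all genes.

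Irf8, which marks macrophages, dendritic cells and B cells, was at 2.89, 8.95, 17.5 and 8.35 CPM in Control_6w and at 12.0, 23.6, 29.6 and 31.8 CPM in IRR_6w. Control replicate 3, the library with thymocyte transcripts, was above irradiated replicate 1, and otherwise the groups were apart. The groups differed by 1.36 on the log2 scale (SE 0.47, edgeR adjusted p = 0.353; exact permutation p = 0.0571). Without Control_6w replicate 3 it was 1.85 (edgeR adjusted p = 0.112), and without the 3 libraries with brown fat transcripts 2.07 (edgeR adjusted p = 0.0510). Over 23 alternatives the value ran from 0.92 to 2.07, and Irf8 was called in 0 of them.

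Irf5, the myeloid factor, was at 4.11, 7.19, 4.65 and 7.07 CPM in Control_6w and at 16.6, 16.5, 5.59 and 19.4 CPM in IRR_6w. Irradiated replicate 3, in which many genes were at 0 counts, lay within the controls and the other three above them. The difference on the log2 scale was 1.34 (SE 0.82, edgeR adjusted p = 0.702). The exact permutation p was 0.0571 by plain library totals and 0.0857 by TMM-scaled totals.

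Irf1, Irf2 and Irf3 overlapped between the groups. Irf1 was at 21.2, 38.8, 37.0 and 31.1 CPM in Control_6w and at 23.0, 36.5, 17.2 and 17.5 CPM in IRR_6w, which gives -0.44 on the log2 scale (SE 0.30, edgeR adjusted p = 0.730; exact permutation p = 0.486). For Irf1 it was -0.73 without IRR_6w replicate 2, -0.24 by plain library totals and -0.10 without the 3 libraries with many genes at 0 counts. Irf3, the constitutive partner of Irf7, was at 17.0, 17.7, 29.1 and 15.1 CPM in Control_6w and at 17.9, 16.5, 9.78 and 13.7 CPM in IRR_6w, which gives -0.45 on the log2 scale (SE 0.30, edgeR adjusted p = 0.730; exact permutation p = 0.686). Its highest value was in the control library with thymocyte transcripts, and without that library the log2 fold change of Irf3 was -0.20, and by plain library totals -0.26. By TMM-scaled totals the exact permutation p was 0.2 for Irf1 and 0.2 for Irf3. Irf2 was at 23.6 to 31.7 CPM in Control_6w and 25.3 to 33.0 CPM in IRR_6w (log2 fold change 0.10, SE 0.23, edgeR adjusted p = 0.927).

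**Figure D2:**
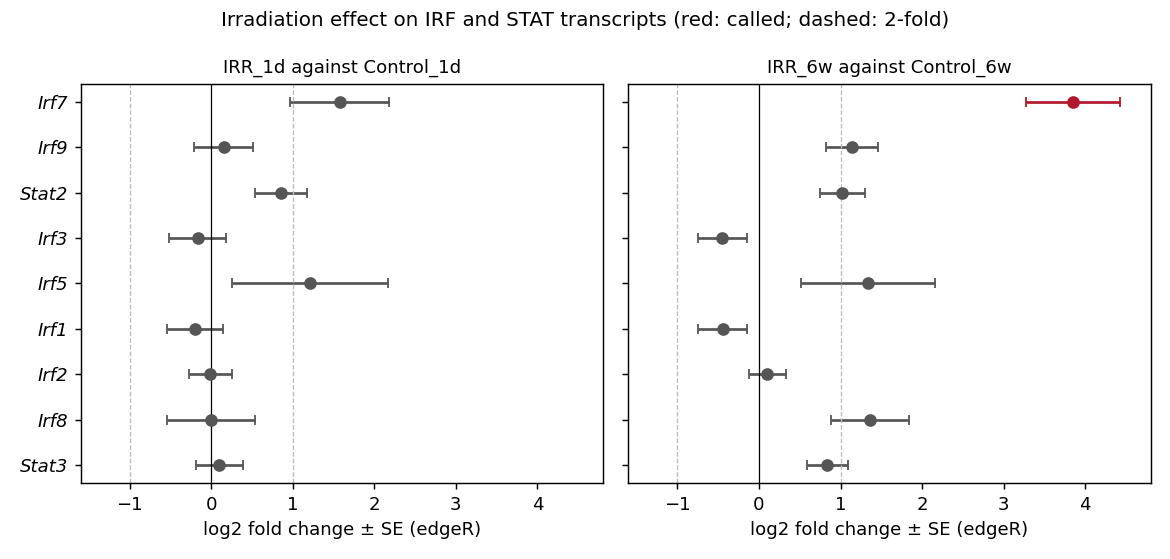
Log2 fold change ± SE from edgeR of IRR_1d against Control_1d (left) and IRR_6w against Control_6w (right) for each member, with dashed lines at a 2-fold difference and the called member in red. At 6 weeks Irf7 stands at 3.85, Irf5, Irf8, Irf9 and Stat2 between 1.02 and 1.36, and Irf1 and Irf3 at -0.44 and -0.45.

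The second comparison asks which of the factors differed 1 day after irradiation. None of the 9 members was called, as were 0.0249% of all tested genes. At an unadjusted p under 0.05, 2 members were higher, Irf7 and Stat2, and 1.94% of all genes were. DESeq2 and limma-voom called none of the members either. The log2 fold change was above 0 in 5 of 9 members and 55.1% of all genes, with a median of 0.10 over the members and 0.06 over all genes.

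Irf7 was at 11.6, 11.2 and 28.0 CPM in Control_1d and at 24.3, 23.7 and 103.9 CPM in IRR_1d. Irradiated replicate 3 was the highest by far, and control replicate 3 lay above the other irradiated libraries. The log2 fold change was 1.58 (SE 0.61, edgeR adjusted p = 1; exact permutation p = 0.3). Stat2 was at 26.4, 24.3 and 33.4 CPM in Control_1d and at 39.9, 39.5 and 72.9 CPM in IRR_1d. It was the only member whose groups did not overlap, which with the irradiated higher held for 6.51% of all genes. Its log2 fold change was 0.86 (SE 0.32, edgeR adjusted p = 1; exact permutation p = 0.1, the smallest that 3 against 3 libraries allow).

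Both differences moved with IRR_1d replicate 3, the library with atrial and brown fat transcripts. Without it the log2 fold change was 0.50 for Irf7 and 0.51 for Stat2. In IRR_1d replicate 3 the fibroblast markers summed to 5114 CPM. They summed to 2086 to 2757 CPM in Control_1d and to 2364 and 2495 CPM in the other IRR_1d libraries. Its cardiomyocyte markers summed to 15926 CPM, the lowest of the 1-day libraries. The part of these transcripts and cell types in the result was not tested.

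The other members had an edgeR adjusted p of 1 at 1 day. Irf9 was at 59.7, 33.4 and 35.3 CPM in Control_1d and at 37.8, 39.9 and 65.1 CPM in IRR_1d, so that 1 library of each group stood above the rest (log2 fold change 0.15, SE 0.36). Irf5 was at 0, 3.62 and 6.16 CPM in Control_1d and at 8.50, 5.92 and 8.18 CPM in IRR_1d (log2 fold change 1.21, SE 0.96, edgeR adjusted p = 1). The 0 was in Control_1d replicate 1, in which many low genes were at 0 counts, and without that library the log2 fold change of Irf5 was 0.62. It was 2.11 without Control_1d replicate 3 and 3.32 by limma-voom. Log2 fold changes of Irf1, Irf2, Irf3, Irf8 and Stat3 lay between -0.20 and 0.10 with SE of 0.26 to 0.54.

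Further comparisons follow the same treatment over time. The mice of the 6-week groups were also older, so age and time after treatment cannot be told apart in them. Between the controls, 0 members were called, as were 0% of all genes, and 0 members had an unadjusted edgeR p under 0.05. By DESeq2 0 members were called too. Of all genes, 3.54% were higher at 6 weeks at an unadjusted p under 0.05 and 3.38% had groups that did not overlap with 6 weeks higher. Log2 fold changes of the members ran from -0.65 for Irf7 (SE 0.56) to 0.82 for Irf5 (SE 0.90). Without Control_1d replicate 3 they were -0.055 for Irf7 and 1.71 for Irf5, and for Irf5 the value was 0.23 without Control_1d replicate 1 and 2.86 by limma-voom. Between the irradiated groups 0 members were called, against 0.0374% of all genes, and 2 were higher at 6 weeks at an unadjusted p under 0.05, against 4.20% of all genes. These were Irf8, higher by 1.93 on the log2 scale (SE 0.53, edgeR adjusted p = 0.448), and Irf7, higher by 1.62 (SE 0.58, edgeR adjusted p = 0.703) and by 2.70 without IRR_1d replicate 3.

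Irf8 was at 6.31, 5.75 and 7.06 CPM in IRR_1d, below all 4 IRR_6w libraries. It was 1 of 2 members, with Irf2, whose irradiated groups did not overlap, as held for 5.44% of all genes with 6 weeks higher. Irf2 was at 18.9, 23.2 and 21.5 CPM in IRR_1d and at 26.5, 25.3, 30.7 and 33.0 CPM in IRR_6w (log2 fold change 0.45, SE 0.25, edgeR adjusted p = 0.965). DESeq2 called Irf8 (adjusted p = 0.0375). Between the irradiated groups B cell markers were above 0 in 6 of 6, with 4 higher at an unadjusted edgeR p under 0.05 (median 3.95). Dendritic cell markers were above 0 in 7 of 8, with 2 higher (median 1.29). Macrophage markers were above 0 in 10 of 12, with 5 higher and 1 lower (median 0.68). The part of these cells in the level of Irf8 was not tested. Without the 3 libraries with brown fat transcripts edgeR called Irf7 (log2 fold change 2.98, adjusted p = 0.0117) and not Irf8 (2.23, adjusted p = 0.0983). In that fit 10 of 30 listed interferon-stimulated genes were called too, against 0 in the main fit.

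The last comparison asks whether the effect of irradiation differed between 1 day and 6 weeks. None of the members was called, nor was any gene of the table (0%). For Irf7 the log2 effect was 2.27 larger at 6 weeks (SE 0.80, edgeR adjusted p = 0.990), the only member with an unadjusted p under 0.05 and a larger effect at 6 weeks, as held for 2.13% of all genes. Without the 3 libraries with brown fat transcripts the difference for Irf7 was 3.56 and was called (edgeR adjusted p = 0.0346). In that fit 5 of 30 listed interferon-stimulated genes were called too, against 0 in the main fit. This was the only 1 of 22 alternatives that called Irf7. With 1 library left out its difference ran from 1.66 to 3.34 and was called in 0 of 14 fits. The difference was 1.36 for Irf8 (SE 0.72), 0.99 for Irf9 (SE 0.48), 0.73 for Stat3 (SE 0.38) and 0.17 for Stat2 (SE 0.42). Without the 3 libraries with many genes at 0 counts it was 0.99 for Irf8, 0.13 for Irf9 and 0.20 for Stat3, and without the 3 libraries with brown fat transcripts 2.15 for Irf8, 1.51 for Irf9 and 0.79 for Stat2. The 1-day and 6-week values of Stat2 itself were 0.86 and 1.02, and without the libraries with brown fat transcripts 0.50 and 1.29.

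Levels of the members per length were compared within each group as FPKM, the CPM by plain totals per kilobase of exon. In Control_6w, Stat3 stood first at 12.8 ± 2.04 FPKM (SD, n = 4), above the range of every other member with this length, while with that of the longest coding transcript its range overlapped with that of Irf1 (17.1 to 24.5 and 9.61 to 20.1 FPKM). Irf1 followed at 8.05 ± 2.43, Irf9 at 6.34 ± 1.04, Irf3 at 5.85 ± 2.68, Stat2 at 4.98 ± 1.45, Irf2 at 3.64 ± 0.914, Irf7 at 2.81 ± 0.552, Irf5 at 1.94 ± 0.425 and Irf8 at 1.38 ± 1.05, and from Irf1 on the ranges of neighbours in this order overlapped.

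In IRR_6w, Irf7 stood first at 47.7 ± 22.3 FPKM (SD, n = 4, range 17.7 to 67.5), and its range overlapped with that of Stat3 at 27.5 ± 9.59. Irf9 followed at 16.6 ± 7.15, Stat2 at 11.8 ± 4.39, Irf1 at 6.80 ± 2.09, Irf5 at 5.85 ± 2.58, Irf3 at 4.89 ± 1.15, Irf2 at 4.58 ± 0.840 and Irf8 at 4.04 ± 1.61, each overlapping with its neighbour. Irf7 was thus 7th in Control_6w and 1st in IRR_6w. At 1 day it was 6th in Control_1d at 4.01 ± 2.23 FPKM and 2nd in IRR_1d at 13.3 ± 13.4 FPKM (SD, n = 3), where 1 library at 28.7 FPKM set the mean. The ranks of Irf7 were the same with the length of the longest coding transcript in place of that of all exons.

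The make-up of the IRF transcripts differed in the same libraries. Irf7 made up 9.21, 12.0, 7.0 and 10.3% of the summed FPKM of the 7 IRFs in the Control_6w libraries and 34.1, 62.1, 51.4 and 53.4% in the IRR_6w libraries. The largest share in Control_6w was that of Irf1 in 3 libraries, at 26.6 to 30.6%, and of Irf9 in replicate 1, at 29.0%. At 1 day the share of Irf7 was 9.95, 12.7 and 22.0% in Control_1d and 20.2, 20.8 and 49.6% in IRR_1d. The ratio of Irf7 to Irf3 was 0.289 to 0.746 in Control_6w and 2.87, 13.3, 13.3 and 12.3 in IRR_6w. IRR_6w replicate 1, the library with lung and atrial transcripts, was the lowest of the IRR_6w libraries by each of these measures.

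**Figure D3:**
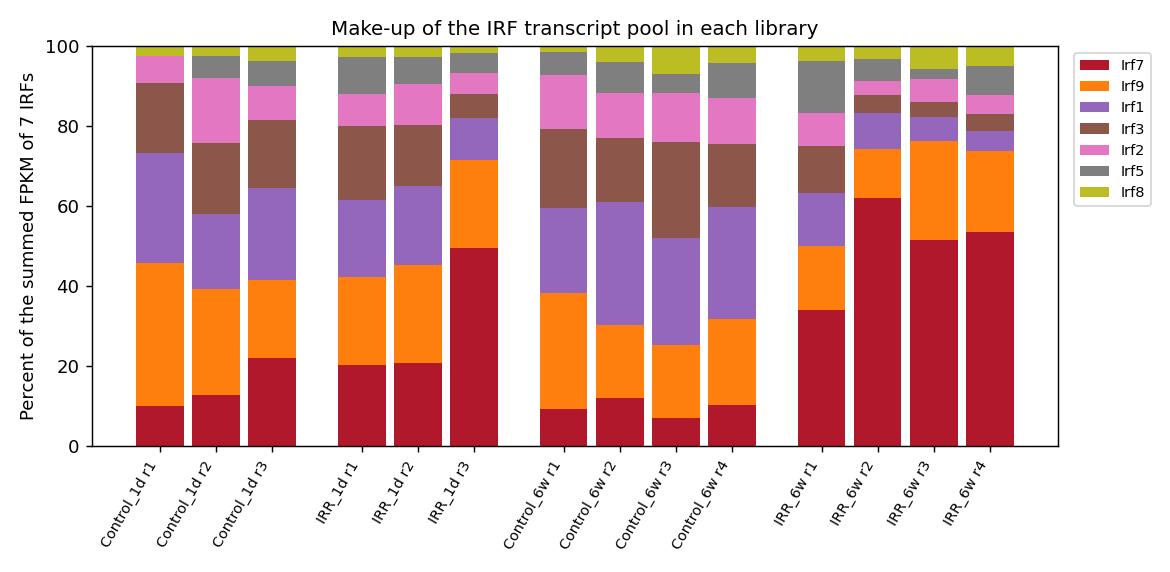
Share of each of the 7 IRF transcripts in their summed FPKM, as a stacked bar for each library, in percent. Irf7 (red, at the base) takes 7.0 to 12.0% in Control_6w and 34.1 to 62.1% in IRR_6w, and 49.6% in IRR_1d replicate 3 against 20.2 and 20.8% in the other IRR_1d libraries.

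The genes that surround these factors were taken from fixed lists, by role. Among ligands, 18 of 28 interferons and gp130 cytokines had 0 counts in all 14 libraries, among them all 13 listed interferon alpha genes and Ifng. Ifnb1, which encodes interferon beta and is a direct target of IRF3 and IRF7, did not pass the low-count filter and was singled out after its counts were seen. It had 0 counts in 11 libraries and 2, 36 and 20 counts in IRR_6w replicates 2, 3 and 4. The libraries with 36 and 20 counts are those in which many low genes were at 0 counts, and the part of this in the counts was not tested. Of the 5 ligands tested none was called at 6 weeks by edgeR, DESeq2 or limma-voom, and 1 was higher at an unadjusted edgeR p under 0.05. Il6, the main ligand upstream of STAT3, had 7, 13, 44 and 45 counts in the IRR_6w libraries and at most 4 in any other library (log2 fold change 3.75, SE 1.37, edgeR adjusted p = 0.391). Osm and Lif, relatives of Il6, had log2 fold changes of 1.09 (SE 1.51) and 0.67 (SE 1.21).

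By the same 3 tools none of 15 receptors and JAK kinases was called at 6 weeks. By edgeR 1 was higher at an unadjusted p under 0.05, 9 were above 0 and the median log2 fold change was 0.15. Tyk2, the kinase on the type I interferon receptor, had 0.64 (SE 0.23, edgeR adjusted p = 0.388), Jak2 0.53 (SE 0.29) and Ifnar1, a receptor subunit, 0.41 (SE 0.23). Of 18 tested adaptors and kinases upstream of IRF3, IRF5 and IRF7 none was called by any of the 3 tools, 0 had an unadjusted edgeR p under 0.05 and 10 were above 0, with a median of 0.09. Tmem173, which encodes STING, had 0.59 (SE 0.33), Traf3 0.38 (SE 0.26) and Slc15a4 0.45 (SE 0.31). Of 6 other IRF and STAT genes none was called by any of the 3 tools and 2 were above 0, with a median of -0.27. Stat5b, the only one with an unadjusted edgeR p under 0.05, had -0.45 (SE 0.21, edgeR adjusted p = 0.561), Stat4 -1.57 (SE 1.44) and Stat6 -0.24 (SE 0.28).

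Targets of ISGF3 stood highest of the lists. All 30 listed interferon-stimulated genes were above 0 at 6 weeks, 28 had an unadjusted p under 0.05 and 5 were called, and the median log2 fold change was 2.02 against -0.09 over all genes. The 5 were Ifit3b with 3.59 (SE 0.68, edgeR adjusted p = 0.0468), Ifit3 with 3.39 (SE 0.60, edgeR adjusted p = 0.0400), Oas1a with 3.03 (SE 0.50, edgeR adjusted p = 0.0250), Rsad2 with 2.25 (SE 0.39, edgeR adjusted p = 0.0335) and Eif2ak2 with 1.61 (SE 0.31, edgeR adjusted p = 0.0468). They encode RNA-binding and antiviral proteins, and Ifit3 and Ifit3b are near-identical copies between which reads may be split. Rsad2 was at 29.5 to 71.6 CPM in Control_6w and 141.5 to 321.8 CPM in IRR_6w. The list was compiled with results of these libraries known and is not independent evidence of its direction.

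The count of called ISGF3 targets depended on the libraries and the test. It was 0 without replicate 1, 2 or 4 of Control_6w or replicate 3 or 4 of IRR_6w, 1 to 3 without replicate 2 or 3 of Control_1d, replicate 1 of IRR_1d, replicate 3 of Control_6w or replicate 2 of IRR_6w, 8 without replicate 3 of IRR_1d and 11 without replicate 1 of IRR_6w. It was 21 without the 3 libraries with brown fat transcripts, 22 by DESeq2, 13 without the low-count filter and 0 without the 3 libraries with many genes at 0 counts, where all 30 were still above 0 with a median of 1.44. It was 1 by limma-voom, 2 with the replicate number as a block and 2 in the fit of the 6-week libraries alone. The 0.256% of all genes called at 6 weeks is that of the main fit. The counts of the other fits were not set against a share of their own. At 1 day 27 of the 30 were above 0, 7 were higher and 2 lower at an unadjusted p under 0.05, and none was called by edgeR or limma-voom and 2 by DESeq2 (median 0.72). Without IRR_1d replicate 3 the median at 1 day was 0.21, with 23 above 0 and 4 higher at an unadjusted edgeR p under 0.05. Rsad2 had -0.96 at 1 day (SE 0.43, edgeR adjusted p = 1).

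Of 22 genes known as targets of IRF1 or interferon-gamma, 19 were above 0 at 6 weeks, 11 had an unadjusted p under 0.05 and 2 were called, with a median log2 fold change of 0.86. The called genes were Irgm1, an interferon-inducible GTPase, at 1.82 (SE 0.34, edgeR adjusted p = 0.0468), and H2-K1, an MHC class I gene, at 1.29 (SE 0.24, edgeR adjusted p = 0.0468). Gbp3, a guanylate-binding protein gene, was next by p at 1.48 (SE 0.36, edgeR adjusted p = 0.116). H2-K1 was at 212.2 to 343.0 CPM in Control_6w and 603.8 to 745.6 CPM in IRR_6w. In the fit of the 6-week libraries alone, by limma-voom, with the replicate number as a block and without the 3 libraries with many genes at 0 counts 0 of the 22 were called, by DESeq2 6 and by plain library totals 1. None was called without any single one of Control_1d replicates 2 and 3, IRR_1d replicates 1 and 2, Control_6w replicates 1, 2 and 4 and IRR_6w replicates 2, 3 and 4, and 1 was without Control_6w replicate 3. The number called was 3 without IRR_1d replicate 3 and 7 without the 3 libraries with brown fat transcripts. These counts, too, were not set against the share of all genes called in each fit.

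Of 20 genes known as STAT3 targets none was called at 6 weeks by edgeR or limma-voom, 16 were above 0 and 4 had an unadjusted p under 0.05, with a median of 0.50. Ccnd1, the cyclin D1 gene, had 2.33 (SE 0.53, edgeR adjusted p = 0.0901), Fgl2 1.53 (SE 0.42, edgeR adjusted p = 0.159) and Il4ra 0.56 (SE 0.20, edgeR adjusted p = 0.382). DESeq2 called 2, Ccnd1 and Fgl2. Ccnd1 was also called by plain library totals, without the low-count filter, without IRR_6w replicate 1 and without the 3 libraries with brown fat transcripts. The median of the list was 0.31 without IRR_6w replicate 1 and 0.14 without those 3 libraries, and 0.76 by plain library totals and 0.64 without the 3 libraries with many genes at 0 counts. Inhibitors of the pathway were mixed. Of 17, 8 were above 0, 1 was higher and 1 lower at an unadjusted p under 0.05 and none was called by edgeR or limma-voom. Usp18, which blocks the type I interferon receptor and is itself an ISGF3 target, had 2.46 (SE 0.66, edgeR adjusted p = 0.156) and was called by DESeq2, without the low-count filter and without the 3 libraries with brown fat transcripts. Ptpn1 had 0.44 (SE 0.22) and Pias2 -0.58 (SE 0.25, edgeR adjusted p = 0.510).

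**Figure D4:**
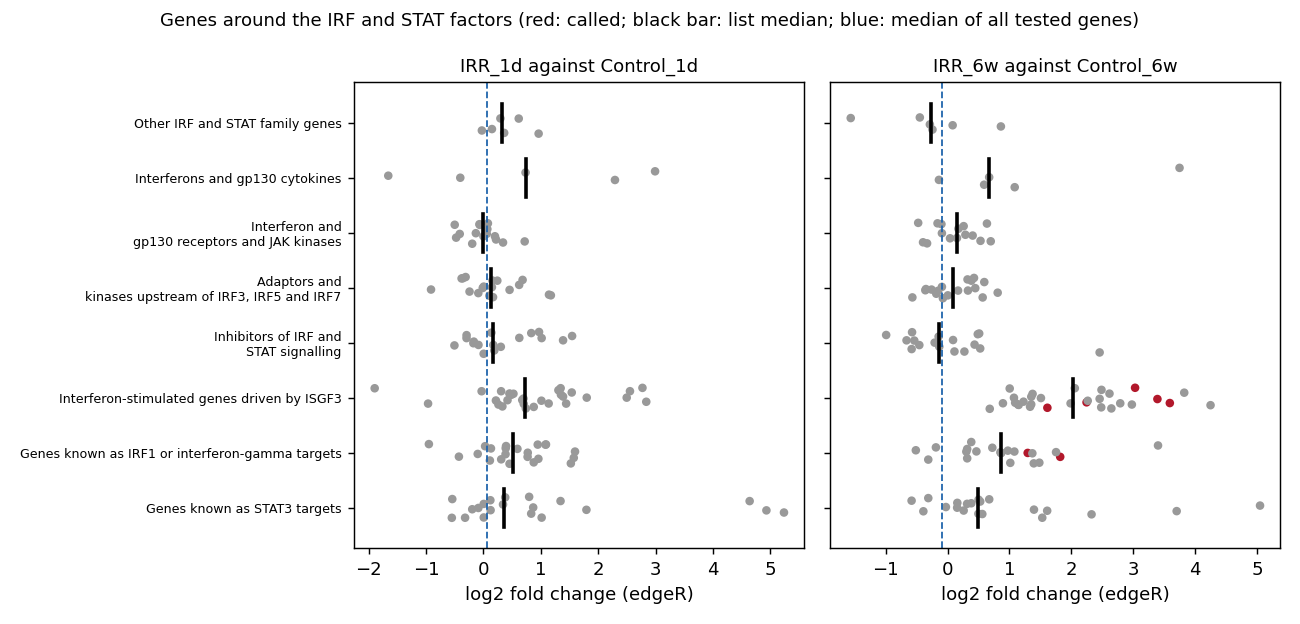
Log2 fold change from edgeR of each tested gene of 8 lists, with a dot for each gene (called genes in red), a black bar at the median of the list and a dashed blue line at the median of all tested genes, at 1 day (left) and 6 weeks (right). At 6 weeks the ISGF3 targets have a median of 2.02 and all 30 lie above 0, and the receptors, adaptors and inhibitors have medians of 0.15, 0.09 and -0.13.

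Macrophage markers were higher in IRR_6w than in Control_6w. At 6 weeks 11 of the 12 markers were above 0, 10 were higher and 1 lower at an unadjusted edgeR p under 0.05, and none was called (median 1.16). The summed level was 321 to 798 CPM in Control_6w and 1254 to 1632 CPM in IRR_6w, and no marker was at 0 counts in any library. The markers of dendritic cells had a median of -0.04, with a summed level of 46.3 to 300.5 CPM in Control_6w and 32 to 54.8 CPM in IRR_6w. Fibroblast markers were above 0 in 5 of 6 and higher in 4 at an unadjusted p under 0.05 (median 0.96), with sums of 923 to 2177 CPM in Control_6w and 2321 to 3293 CPM in IRR_6w. B cell markers were above 0 in 6 of 6, none at an unadjusted p under 0.05 (median 1.43), with sums of 3.59 to 21.6 and 10.7 to 59.9 CPM. Cardiomyocyte markers were above 0 in 0 of 8, none lower at an unadjusted p under 0.05 (median -0.74), with sums of 4822 to 42878 and 7872 to 30197 CPM. T cell markers were above 0 in 0 of 8 and lower in 7 at an unadjusted p under 0.05 (median -4.31). Their sum was 2057 CPM in Control_6w replicate 3, the library with thymocyte transcripts, 4.41 to 25.1 CPM in the other Control_6w libraries and 15.9 to 33.4 CPM in IRR_6w. Neutrophil markers were above 0 in 6 of 6, none at an unadjusted p under 0.05 (median 1.13), with sums of 7.95 to 32.1 and 13.7 to 77.7 CPM. None of these markers was called by edgeR. The part of these cell types in the levels of the members was not tested.

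Across the 14 libraries, on log2 CPM, Irf7 correlated most closely with Stat2 (Pearson r = 0.90), and Irf9 with Stat3 (r = 0.83), Irf7 (r = 0.80) and Stat2 (r = 0.78). Irf3 and Irf1 ran against Stat3 (r = -0.68 and -0.65) and with each other (r = 0.63). These libraries share groups and scaling factors, so the values are descriptions.

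The tested genes closest to each member over the 14 libraries were named by the highest Pearson r. For Irf7 they were Lgals3bp (r = 0.97), Ifit3b (r = 0.95) and Ifi204 (r = 0.95). For Stat2 they were Ifit1 (r = 0.96), Ifit3b (r = 0.95) and Ifit3 (r = 0.94). For Irf9 they were Trim30a (r = 0.96), Ifi44 (r = 0.95) and Adar (r = 0.95). Of these, Ifit1, Ifit3, Ifit3b, Trim30a and Ifi44 are on the list of ISGF3 targets, and Lgals3bp, Ifi204 and Adar are not.

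For Stat3 they were Ccl7, Oas2, one of the listed ISGF3 targets, and Loxl2 (r = 0.95, 0.94 and 0.93). They were Iqgap3, Cxcr6 and H2-Q6 for Irf8 (r = 0.93, 0.92 and 0.92) and Hmox1, C77080 and Scap for Irf5 (r = 0.96, 0.95 and 0.95). Pdcd6, Rpl6l and Rps12-ps4 stood nearest to Irf1 (r = 0.91, 0.90 and 0.89), Runx2, Tubb2b and Atxn7l1 to Irf2 (r = 0.93, 0.92 and 0.89), and Cep19, Cramp1l and Gmeb1 to Irf3 (r = 0.88 each).

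**Figure D5:**
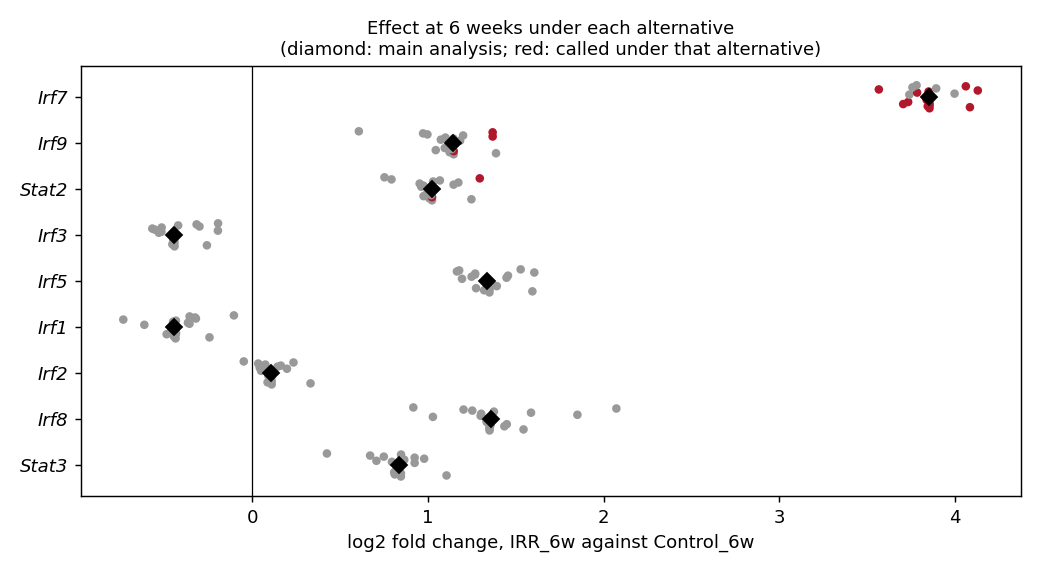
Log2 fold change of IRR_6w against Control_6w for each member in the main analysis (black diamond) and in each of 23 alternative analyses (dots, red where the member was called). Irf7 stays between 3.57 and 4.13 and is called in 18 of the 23, Irf9 in 3 and Stat2 in 2, and the values of Irf9 reach down to 0.61. The 23 include fits that left out a 1-day library, which is not in this comparison.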

How the data were processed

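Total RNA of mouse hearts was sequenced for the study by Novogene as 150-base paired-end reads. The submitters' processing notes name FastQC 0.11.8, Trim Galore 0.6.1, STAR 2.5.0a and mm10, and HTSeq counted the reads per gene. The deposited values are raw counts for 54532 genes and 14 libraries, beside coordinates and a length for each gene, which equals the union of exons in GENCODE M21 for the 9 members. Strandedness, counting mode and annotation release are not given in the sources used here.

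Groups were taken from the labels. The counts were fitted with edgeR 4.0.16 (R 4.3.3): filterByExpr left 16034 genes, TMM scaled the library totals, and 1 quasi-likelihood model of the 4 groups gave each comparison, two-sided, with Benjamini-Hochberg adjustment over all tested genes. A call needs a fold change above 2 or below 0.5 and an adjusted p under 0.05. Single members were also tested by exact permutation of log2(CPM + 1) from plain totals, where the smallest p is 0.0286 for 4 against 4 or 3 against 4 libraries and 0.1 for 3 against 3. FPKM was computed from the plain totals and deposited lengths. Nearest genes used log2(CPM + 0.5), TMM-scaled. DESeq2 1.42.0, limma 3.58.1 and other scalings, filters and left-out libraries were the alternatives. On data simulated from these libraries with 200 changed genes the edgeR step was tested before use.

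Named were all 9 members, from each list the genes called at 6 weeks filled up to 3 by the smallest p, and the 3 nearest genes of each member. Members and lists were chosen with earlier results of these data known. By counting alone a gene at 0 counts allows up to 3 at 95% confidence, and this covers counting error only. Sequences are those of RefSeq (GRCm38.p6).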

Additional observations from a re-analysis of the deposited data

How the results depend on the processing

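Under 23 alternatives Irf7 kept its direction at 6 weeks and was called in 18. These include fits that left out a 1-day library, which is not in either group compared. Of the 14 fits that left out 1 library it was called in 10, and those that lost the call each left out a 6-week library. The number of members called at 6 weeks, 1 in the main analysis, was 3 by DESeq2 (Irf7, Irf9 and Stat2), 3 without the 3 libraries with brown fat transcripts, 0 without the 3 libraries with many genes at 0 counts (an alternative chosen after seeing the data, which leaves 2 irradiated libraries), and 0 to 2 with 1 library left out. The fits that dropped replicate 1 or replicate 2 of Control_6w, or replicate 3 or replicate 4 of IRR_6w, gave 0, and that without IRR_6w replicate 1 gave 2. Between the irradiated groups it was 1 by DESeq2 (Irf8) and 1 without the libraries with brown fat transcripts (Irf7), against 0, and for the change in effect 1 without those libraries (Irf7), against 0. Without the libraries with brown fat transcripts, calls rose outside the members too. Called ISGF3 targets went from 5 to 21 at 6 weeks and from 0 to 10 between the irradiated groups. In the change in effect they went from 0 to 5. The share of all genes called in that fit was not set beside these counts. The causes were not tested. In the other comparisons and alternatives the counts of called members were as in the main analysis.

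Small log2 fold changes of members that were not called changed sign. By library totals in place of TMM they were 0.10 for Irf2 and 0.055 for Irf8 at 1 day and 0.27 for Irf1 and 0.21 for Irf3 between the irradiated groups, where the median of all genes shifts by over 0.1 with this scaling, and the differences in log2(CPM + 1) there were -0.091 for Irf1 and -0.11 for Irf3 by TMM-scaled totals. By limma-voom they were 0.058 for Irf2 and 0.043 for Irf8 at 1 day and -2.04 for Irf5 in the change in effect. For Irf8 at 1 day they were 0.0011 with DESeq2 size factors, 0.0086 without the low-count filter, 0.00084 by DESeq2 and 0.00019 with only the groups compared. Without the libraries with brown fat transcripts they were 0.036 for Irf3 and -0.14 for Irf9 at 1 day and -0.085 for Irf3 and -0.059 for Stat2 between the controls. Without the libraries with many genes at 0 counts they were -0.049 for Irf2 at 6 weeks, 0.31 for Irf1, 0.13 for Irf3, -0.041 for Stat2 and -0.022 for Stat3 between the irradiated groups, and -0.063 for Stat2 in the change in effect.

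With 1 library left out, the log2 fold changes ran at 1 day from -0.20 to 0.24 for Irf2, from -0.39 to 0.039 for Irf3, from -0.20 to 0.38 for Irf8 and from -0.14 to 0.47 for Irf9. Between the controls they ran from -0.011 to 0.40 for Irf1, from -0.086 to 0.29 for Irf3, from -0.45 to 0.00027 for Irf9 and from -0.059 to 0.23 for Stat2. Between the irradiated groups they ran from -0.32 to 0.097 for Irf1 and from -0.32 to 0.12 for Irf3. In the change in effect they ran from -0.15 to 0.30 for Irf2, from -0.77 to 0.71 for Irf5 and from -0.063 to 0.51 for Stat2.

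The labels give the groups the same replicate numbers but do not say that a number marks a shared cage or day, and deviations of same-numbered libraries correlated at -0.36 to 0.37. With the replicate number as a block, 1 member was called at 6 weeks and 0 elsewhere, as without it, while the count over all genes at 6 weeks went from 41 to 15. The block turned the sign for Irf2 (0.0083) and Irf8 (0.074) at 1 day, Irf1 (0.015) between the irradiated groups and Irf5 (-0.026) in the change in effect. Irf5 and Irf8 were at under 10 CPM in most control libraries and Irf7 in 2 of 4 Control_6w libraries, and how far depth limits each member was not tested.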
